A study of Mus musculus with 8 samples.

Results

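The Slit ligands and Robo receptors were followed in dopaminergic neurons of the embryonic mouse midbrain. The members were every array probe whose gene symbol in the deposited annotation is Slit1, Slit2, Slit3, Robo1, Robo2 or Robo3, which gave 6 probes, 1 for each gene. The array holds 55681 non-control probes and 24088 named genes. Cells came from the ventral midbrain of Pitx3(gfp/+) mouse embryos at E14.5, cut into a rostral and a caudal part, dissociated with papain and sorted by flow cytometry. There were 4 pools of Gfp-positive cells from the rostral part and 4 from the caudal part, each made of 5 to 7 embryos with litters spread over the pools. The reference, hybridised with every pool on a 2-colour array, was made from the Gfp-negative cells that these specimens also yielded. All cells, those of the reference included, therefore carried 1 gfp allele of Pitx3, and no embryo without it was used. The sorted pool was labelled with Cy3 and the reference with Cy5 on all 8 arrays, so a dye effect is part of every ratio. Pools were sorted on either of a pair of cytometers, and the labels do not say which pool went through which.

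Slits are large secreted proteins that repel growing axons and migrating neurons, and Robo proteins are the receptors on the axon that bind them. Slit binding needs heparan sulfate on the cell surface, and the signal passes into the cell through adaptors and regulators of the actin cytoskeleton bound to the tail of Robo. Robo3 differs from the other members: in mammals it lacks strong Slit binding, responds to Nell2 and is known from commissural axons that cross the midline. In mouse mutants, Slits and Robo1 and Robo2 guide the ascending axons of midbrain dopaminergic neurons.

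The sort was checked on a list of 14 dopaminergic markers, all of which were higher in Gfp-positive than in Gfp-negative cells, with a median log2 ratio of 3.64. The list includes Pitx3, the gene whose gfp allele marked the sorted cells. Beside these and the following counts, 35% of all tested probes were called higher and 32.7% lower in Gfp-positive cells. Of 7 tested microglia markers, 1 was higher, 1 was lower and 5 were not called, with a median of 0.20. Their summed sample-channel intensity was 37090 to 112600 in rostral pools and 30150 to 101900 in caudal pools. The lists of other cell types had medians below 0, from -4.13 to -0.64, but some held members that were higher. Of 14 floor plate and progenitor markers 3 were higher (Shh, Wnt5a and Ntn1) and 11 lower. Of 10 GABAergic markers 1 was higher and 8 lower, and of 6 tested glutamatergic and red nucleus markers 1 and 5. Of 8 motor and oculomotor markers 1 was higher and 5 lower. No tested member of the remaining lists was called higher. The sample channel had 62.5% to 70.4% of probes well above background and the reference channel 54% to 63.5%. Over the tested probes, pairs of arrays had correlations of their log2 ratios from 0.78 to 0.874. In the pericyte and mesenchyme list 1 pool stood apart: the summed sample-channel intensity was 20950 in rostral pool 2, 2679 to 3400 in the other rostral pools and 1929 to 3340 in the caudal pools.

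The 250 bases before the annotated starts of 3 members are shown because the results below turn on these genes: Slit2, the ligand that was higher in the sorted neurons, Robo2, the receptor that differed between the parts, and Robo3, the receptor that was farthest below the reference. Sequences are from RefSeq on GRCm38.p6, read in the sense of transcription, with each CpG in capitals. Robo2 has 3 annotated starts, numbered in the order of transcription. Their windows are chr16:75447294-75447543, chr16:75092771-75093020 and chr16:74411826-74412075, all on the minus strand. The Slit2 window is chr5:47982905-47983154 on the plus strand and that of Robo3 is chr9:37433176-37433425 on the minus strand.
Slit2: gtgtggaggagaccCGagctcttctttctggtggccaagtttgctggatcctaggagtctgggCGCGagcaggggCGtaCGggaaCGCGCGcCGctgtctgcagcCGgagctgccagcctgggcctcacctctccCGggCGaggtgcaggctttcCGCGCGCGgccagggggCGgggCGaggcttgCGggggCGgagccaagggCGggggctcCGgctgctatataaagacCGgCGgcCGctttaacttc
Robo2 start 1: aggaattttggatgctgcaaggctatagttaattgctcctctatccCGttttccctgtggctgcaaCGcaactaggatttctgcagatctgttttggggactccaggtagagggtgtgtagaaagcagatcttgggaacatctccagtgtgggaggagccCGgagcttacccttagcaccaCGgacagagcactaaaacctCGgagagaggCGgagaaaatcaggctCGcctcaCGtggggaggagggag
Robo2 start 2: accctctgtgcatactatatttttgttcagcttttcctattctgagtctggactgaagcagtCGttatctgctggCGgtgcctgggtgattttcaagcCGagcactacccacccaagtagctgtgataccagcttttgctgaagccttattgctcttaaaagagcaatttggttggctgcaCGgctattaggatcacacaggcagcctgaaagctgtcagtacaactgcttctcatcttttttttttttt
Robo2 start 3: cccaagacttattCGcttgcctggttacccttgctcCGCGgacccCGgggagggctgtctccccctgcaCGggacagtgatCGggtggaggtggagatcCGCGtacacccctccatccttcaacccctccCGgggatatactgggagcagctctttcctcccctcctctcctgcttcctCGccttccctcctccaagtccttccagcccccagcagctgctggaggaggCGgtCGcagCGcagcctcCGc
Robo3: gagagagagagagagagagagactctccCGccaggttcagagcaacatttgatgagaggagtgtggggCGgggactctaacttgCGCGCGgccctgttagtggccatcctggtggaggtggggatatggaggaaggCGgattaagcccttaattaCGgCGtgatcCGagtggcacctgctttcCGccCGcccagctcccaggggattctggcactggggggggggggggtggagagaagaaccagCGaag

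The windows differed in CpG content. The Slit2 window held 25 CpG, a count that 3504 of all 32851 RefSeq promoter windows of the same length reached. The Robo2 windows held 8, 4 and 14 CpG in the order printed, reached by 43%, 62.2% and 29.4% of all windows, and the Robo3 window held 12, reached by 33.5%. The windows of Slit3 and Robo1, not printed, held 35 and 11 CpG. A search of both strands for the homeodomain words TAATTA and TAATCC, for CAAGTG, for the forkhead word TGTTTAC and for the nuclear receptor word AAAGGTCA found matches in the Robo3 window alone among the 7 windows of Slit2, Slit3, Robo1, Robo2 and Robo3. It held TAATTA once and TAATCC once, words that 4.84% and 6.25% of all windows hold on either strand. CAAGTG was in 11.6% of all windows, TGTTTAC in 3.17% and AAAGGTCA in 1.34%. These letters were not in the other windows, which says nothing of the factors that bind such words. Robo1 and Robo2 are neighbouring protein-coding genes on chromosome 16, and Robo3 lies beside Robo4 on chromosome 9.

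The first comparison asked which members were enriched in the sorted neurons, by setting the log2 ratio of Gfp-positive over Gfp-negative cells against 0 in all 8 pools. Slit2 was the only member that was higher in Gfp-positive cells, by 1.39-fold. Robo3 was 4.44-fold lower and Robo2 2.07-fold lower, and Slit1 was 1.13-fold lower after loess normalization, a direction that turned with median centring. Slit3 and Robo1 did not pass the test. With limma, fitted over all 37894 probes that were well above background in either channel on at least 4 arrays and adjusted by the Benjamini-Hochberg method with a threshold of 0.05, 4 of the 6 members were called. The same test called 67.7% of all tested probes, 35% as higher and 32.7% as lower in Gfp-positive cells, so the share of members called was near the background. The reference enters as 1 control whose own spread the test leaves out.

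**Figure D1:**
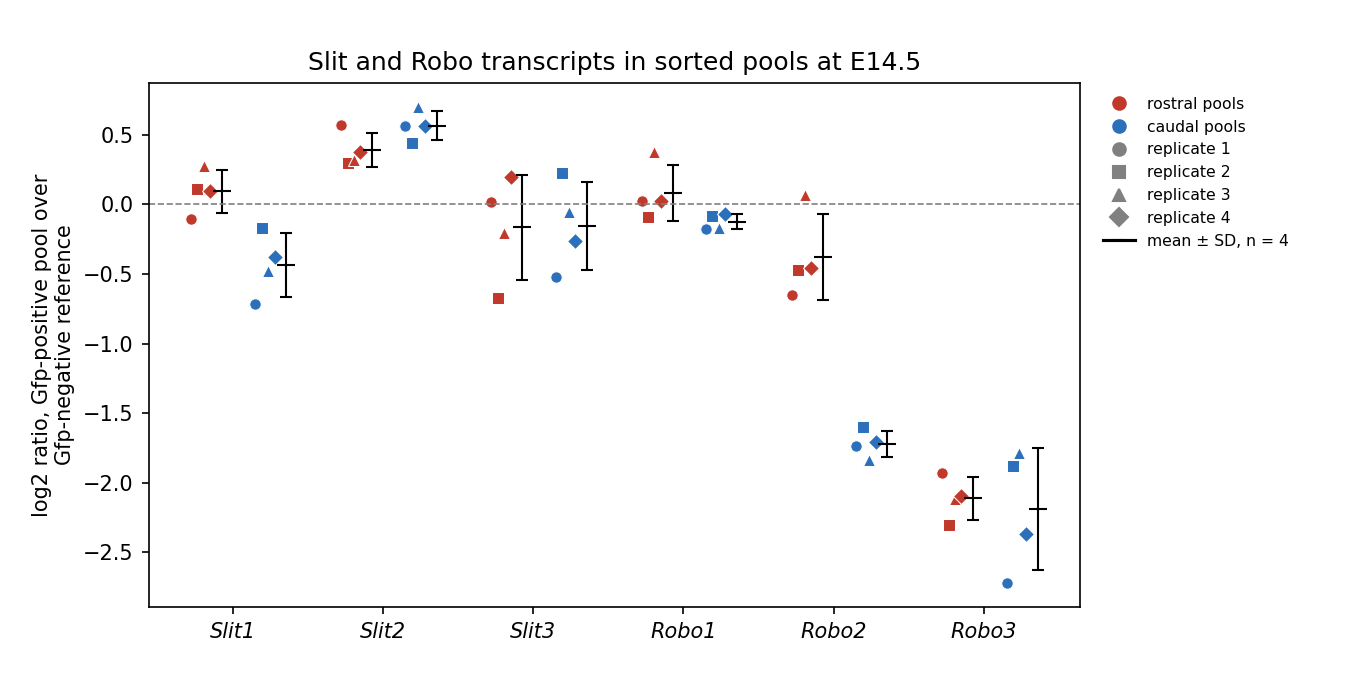
Log2 ratio of each Gfp-positive pool over the Gfp-negative reference (y axis) for the 6 genes (x axis), with rostral pools in red left of caudal pools in blue, 1 symbol for each replicate number, and the mean ± SD of 4 pools beside the points. Rostral and caudal pools are apart for Robo2 and Slit1, all 8 Slit2 points lie above 0, and all 8 Robo3 points lie below -1.7.

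Slit2, the ligand best known for repelling axons from the ventral midline, had log2 ratios of 0.57, 0.30, 0.32 and 0.37 in rostral pools and of 0.56, 0.44, 0.70 and 0.56 in caudal pools. All 8 pools stood above the reference. The mean over the 8 pools was 0.48 (SE 0.04, limma adjusted p = 4.99e-06), and 31.5% of tested probes had a difference of at least this size in either direction. Set against the reference by part, Slit2 was 1.31-fold higher in rostral pools (log2 0.39, limma adjusted p = 0.00032) and 1.48-fold higher in caudal pools (log2 0.57, limma adjusted p = 3.03e-05). In these fits by part, 56% of tested probes were called for the rostral pools and 54.1% for the caudal pools.

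Slit1, a ligand expressed mainly in the nervous system, stood at -0.10, 0.11, 0.28 and 0.10 in rostral pools and at -0.72, -0.17, -0.48 and -0.38 in caudal pools. Of the rostral pools 3 were above the reference and 1 below, while every caudal pool was below it. The mean over all pools was -0.17 (SE 0.06, limma adjusted p = 0.036). That call ended under 6 of the 8 fits that left out 1 pool (adjusted p up to 0.0944), and with each array centred on its median in place of loess the value was 0.15 (limma adjusted p = 0.0877). By part, the rostral pools were at 0.09 (limma adjusted p = 0.396) and the caudal pools 1.35-fold below the reference (log2 -0.44, limma adjusted p = 0.00275). With median centring the rostral pools were at 0.41 (limma adjusted p = 0.00599) and the caudal pools at -0.11 (limma adjusted p = 0.353).

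Slit3, the third ligand, had a dim probe whose median green signal was 150 to 284 against a local background of 67 to 73. It had log2 ratios of 0.02, -0.68, -0.21 and 0.20 in rostral pools and of -0.52, 0.22, -0.05 and -0.26 in caudal pools. Both parts held pools above and below the reference. Its mean of -0.16 had a 95% interval of -0.41 to 0.09 (limma adjusted p = 0.227), which holds 0. The lowest value was that of rostral pool 2, the pool with the high pericyte and mesenchyme sum, and the part of those cells in it was not tested.

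Robo1, a main Slit receptor of forebrain and midbrain axons, had log2 ratios on both sides of 0, at 0.03, -0.09, 0.38 and 0.03 in rostral pools and at -0.18, -0.08, -0.17 and -0.07 in caudal pools. Rostral pool 3 was the farthest from the reference. Its mean was -0.02 with a 95% interval of -0.12 to 0.09 (limma adjusted p = 0.721). The probe was very bright, with a median red signal of 48585 to 65358 and a median green signal of 41304 to 55014. Saturation of its spots was not examined. With the processed signals of the scanner software the mean was -0.13, which passed the test (limma adjusted p = 0.0257). A further probe assigned to Robo1 was not well above background on any of the 8 arrays in either channel and was not tested.

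Robo3, the divergent receptor, was low in the sorted cells of both parts, at -1.93, -2.31, -2.12 and -2.10 in rostral pools and at -2.72, -1.88, -1.79 and -2.37 in caudal pools. The groups overlapped throughout. Its mean was -2.15 (SE 0.11, limma adjusted p = 1.4e-07), and 2.19% of tested probes had a difference of at least this size. The sample channel was near its floor here, with a median green signal of 131 to 283 against a local background of 71 to 78, while the red signal of the reference was 678 to 918. With the processed signals of the scanner software the mean was -2.88. A further Robo3 probe, well above background on 7 arrays in the sample channel and on 4 in the reference channel, gave -0.13 (SE 0.07, limma adjusted p = 0.103), and the mean over both probes was -1.14 (limma adjusted p = 7.49e-07). Both the size of the Robo3 difference and whether it passed the test thus depended on the probe.

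Robo2, the receptor that acts with Robo1 on longitudinal axons, was below the reference in 7 of 8 pools, with a mean of -1.05 (SE 0.07, limma adjusted p = 1.25e-06). At least as large a difference was seen for 9.22% of tested probes. By part, Robo2 was 3.30-fold below the reference in caudal pools (log2 -1.72, limma adjusted p = 9.13e-07). In rostral pools it was at -0.38 (limma adjusted p = 0.0109), a call that ended with median centring, at -0.09 (limma adjusted p = 0.455). A pair of further Robo2 probes gave means of -0.61 (limma adjusted p = 0.0101) and -0.17 (limma adjusted p = 0.0978), and the mean over the 3 probes was -0.61 (limma adjusted p = 0.000238). In rostral pools these further probes were above the reference, at 0.26 and 0.20, and did not pass the test (limma adjusted p = 0.372 and 0.182). With median centring both passed it there, at 0.63 and 0.48 (limma adjusted p = 0.0367 and 0.00668). In bulk pools, fewer cells with a transcript and less transcript in each cell cannot be told apart.

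**Figure D2:**
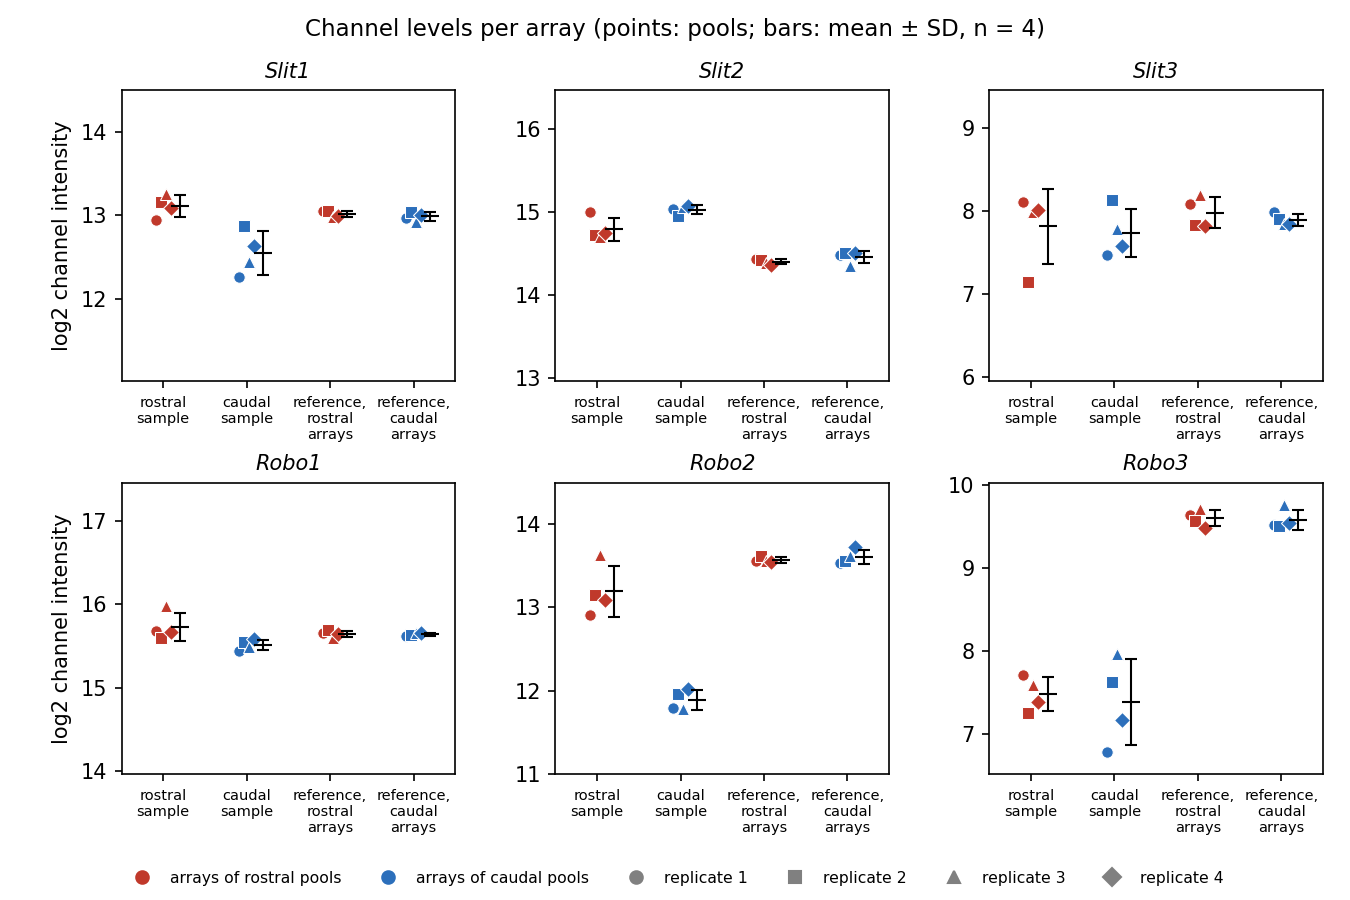
Log2 channel intensity (y axis, 3.5 log2 units in each panel) of the sorted sample in rostral and caudal pools and of the reference on the same arrays, for each gene, as points per array with the mean ± SD of 4 arrays. For Robo2 the sample channel is higher on rostral than on caudal arrays, while the reference channel has means of 13.57 and 13.61.

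The second comparison asked which members set rostral apart from caudal dopaminergic neurons. Robo2 was 2.54-fold higher in rostral pools, and no other member passed the test, although the rostral and caudal pools of Slit1 did not overlap either. Limma called 1 of the 6 members. Over all 36852 probes that at least 4 arrays had well above background in the sample channel it called 3.35%, 1.83% as higher and 1.53% as lower in rostral pools. All pools gave 1236 called probes. The count was 642 without caudal pool 4, 643 without caudal pool 1, 765 without rostral pool 4, 814 without rostral pool 3 and 819 without caudal pool 3, and 860 to 1068 without any of the others. Pools did not overlap between the parts for 2 of the 6 members and for 9.71% of the tested probes.

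The log2 ratios of Robo2 were -0.65, -0.47, 0.07 and -0.46 in rostral pools, against -1.74, -1.60, -1.84 and -1.71 in caudal pools. Every rostral pool was above every caudal pool, by at least the gap between -0.65 and -1.60. The caudal pools lay close together (SD 0.10) and the rostral pools were more spread (SD 0.31), rostral pool 3 being the highest. Rostral pools averaged -0.38 and caudal pools -1.72, a log2 difference of 1.34 (SE 0.14, 95% interval 1.02 to 1.67, limma adjusted p = 0.00292). Of all tested probes, 0.63% had a difference of at least this size in either direction. Without rostral pool 3 the difference was 1.20 (limma adjusted p = 0.00208), and it stayed past the threshold without any other single pool.

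The difference lay in the sample channel. In the sample channel Robo2 had log2 intensities of 12.91, 13.15, 13.63 and 13.09 in rostral pools, against 11.79, 11.95, 11.78 and 12.01 in caudal pools. The sample channel alone gave a difference of 1.31 (limma adjusted p = 0.00369). Its levels were computed from the normalized ratio and mean intensity of each array, so this is no independent test of the ratio. In the reference channel, which held the same pooled RNA on every array, the values were 13.56, 13.62, 13.56 and 13.54 on the arrays of rostral pools and 13.53, 13.56, 13.61 and 13.73 on those of caudal pools, a difference of -0.03 (limma adjusted p = 0.999). With this probe the Robo2 level was lowest in caudal pools, then rostral pools, then the Gfp-negative reference. The step between the parts passed the test, while that between rostral pools and the reference passed with loess and not with median centring, and the further probes did not show it.

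All 8 arrays lay on 1 slide and shared 1 scan, with replicates 1 and 2 of both parts in the first row of the slide and replicates 3 and 4 in the second. Within the first row the Robo2 difference was 1.11 (limma adjusted p = 0.187) and within the second 1.58 (limma adjusted p = 0.0963). With 2 pools a part, neither row had a called probe among all probes tested by limma, and 4118 and 3978 probes had an unadjusted p below 0.05.

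**Figure D3:**
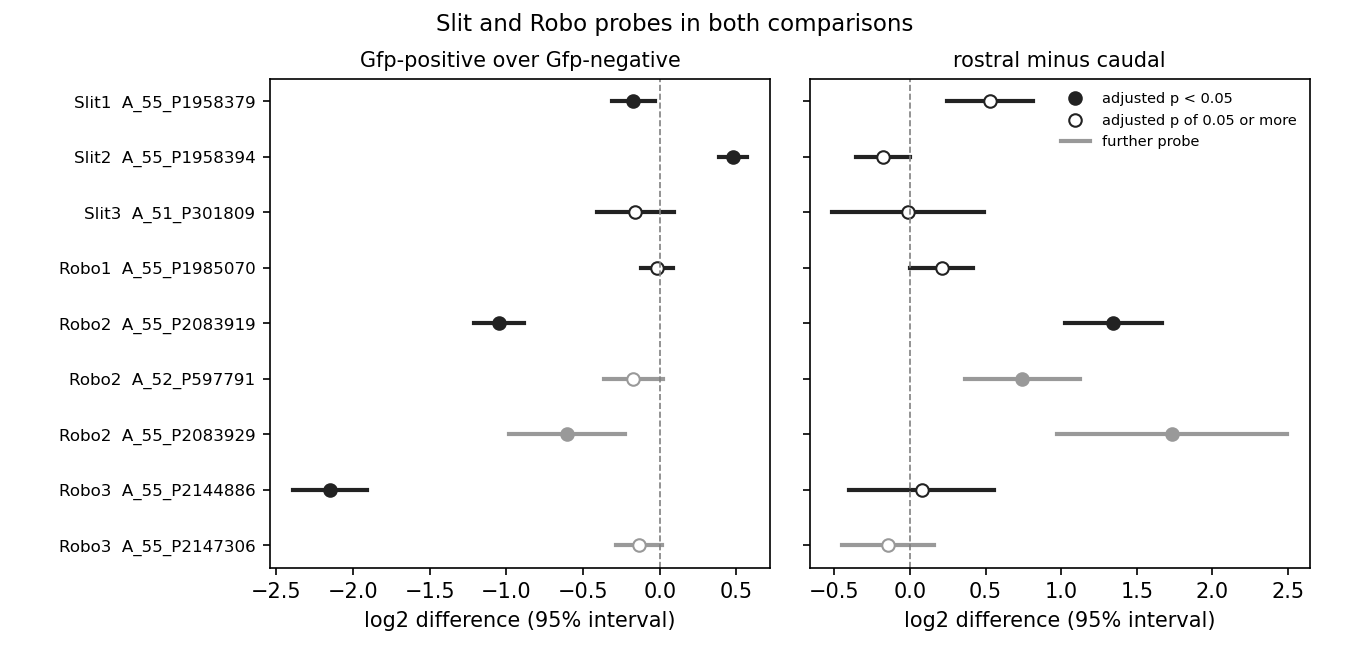
Log2 difference with its 95% interval (x axis) for the 9 tested probes of the Slit and Robo genes (rows), for Gfp-positive over Gfp-negative cells on the left and for rostral minus caudal pools on the right. Filled points passed the adjusted threshold, and grey rows are further probes outside the members; all 3 Robo2 intervals lie above 0 on the right.

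The further Robo2 probes gave the same order of the parts. Probe A_55_P2083929 had log2 ratios of -0.36, 0.07, 1.12 and 0.21 in rostral pools, against -0.88, -1.62, -1.31 and -2.08 in caudal pools, a difference of 1.73 (SE 0.34, limma adjusted p = 0.0265). Probe A_52_P597791 had -0.03, 0.28, 0.41 and 0.14 in rostral pools, against -0.46, -0.21, -0.86 and -0.65 in caudal pools, a difference of 0.74 (SE 0.17, limma adjusted p = 0.0492). Neither had overlapping parts, and rostral pool 3 was the highest of the rostral pools with each of the 3 probes. Both calls were near the threshold: that of A_55_P2083929 ended under 8 of 18 alternatives and that of A_52_P597791 under 13 of 18, most of them fits without 1 pool, with no change of direction. The mean over the 3 probes was 1.27 (limma adjusted p = 0.0076). The probes thus agree in the order of the parts and disagree on where rostral pools stand against the reference. The deposited files do not say which of the 3 starts printed above belongs to the transcripts each probe detects.

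**Figure D4:**
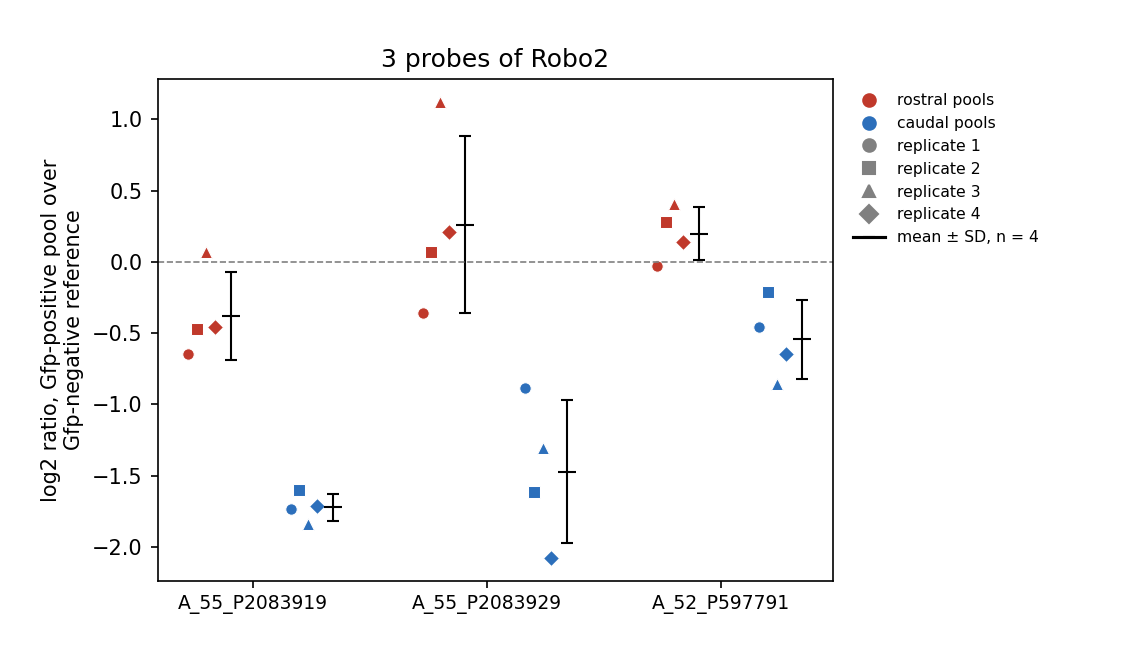
Log2 ratio of each Gfp-positive pool over the Gfp-negative reference (y axis) for the 3 Robo2 probes (x axis), with rostral pools in red left of caudal pools in blue and the mean ± SD of 4 pools. With each probe the lowest rostral pool is above the highest caudal pool.

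Slit1 was the other member without overlap. Rostral pools averaged 0.09 ± 0.16 and caudal pools -0.44 ± 0.23 (SD, n = 4 each), a log2 difference of 0.53 (SE 0.13, 95% interval 0.25 to 0.82), which missed the threshold after adjustment (limma adjusted p = 0.0588). It passed with 3 of 20 alternatives: among probes well above background on all arrays, with 1 probe kept for each gene, and without caudal pool 2, the highest caudal pool (adjusted p of 0.0468, 0.0383 and 0.0381). The reference channel differed by 0.03 between the arrays of the parts (limma adjusted p = 0.999).

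The remaining members gave smaller differences. Slit2 averaged 0.39 ± 0.12 in rostral pools and 0.57 ± 0.11 in caudal pools (SD, n = 4 each), a difference of -0.18 with a 95% interval of -0.36 to 0.0030 (limma adjusted p = 0.34). Robo1 averaged 0.08 ± 0.20 in rostral and -0.12 ± 0.06 in caudal pools (SD, n = 4 each), a difference of 0.21 with a 95% interval of -0.00083 to 0.42 (limma adjusted p = 0.332). Both intervals reach 0 at 1 end, so a small difference in either gene could not be told from none. Robo3 averaged -2.11 ± 0.15 in rostral and -2.19 ± 0.44 in caudal pools (SD, n = 4 each), a difference of 0.08 with a 95% interval of -0.41 to 0.56 (limma adjusted p = 0.935). Slit3 averaged -0.17 ± 0.38 in rostral and -0.15 ± 0.32 in caudal pools (SD, n = 4 each), a difference of -0.01 with a 95% interval of -0.51 to 0.49 (limma adjusted p = 0.992). The intervals of Slit3 and Robo3, whose probes were dim, were the widest of the 6 members.

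The members can also be set side by side over the 8 pools, as a description in which the part and the reference are shared. Slit1 and Robo2 followed each other with a Pearson r of 0.908 over 8 pools, Robo1 and Robo2 with 0.797, and Slit1 and Slit2 ran opposite with -0.82. Robo3 had an r of 0.738 with Slit3, both dim, and of 0.103 with Robo2. Among 18149 genes compared by their brightest probe, the 3 whose ratios were most like those of Robo2 over the 8 pools were Grik1, a kainate receptor subunit (r = 0.986), Cadm2, a cell adhesion molecule (r = 0.986), and Dtnbp1, encoding dysbindin (r = 0.985). Their rostral minus caudal differences were 1.77 for Grik1, 1.32 for Cadm2 and 0.44 for Dtnbp1.

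Markers of other cell types also differed between the parts, and their part in the Robo2 difference was not tested. Beside the counts of markers, 1.83% of all tested probes were called higher and 1.53% lower in rostral pools. Of 8 tested diencephalic and hypothalamic markers, 4 were higher in rostral pools (Nkx2-1, Pmch, Fezf1 and Fezf2) and 1 lower (Lhx9), although the summed sample-channel intensity of the list was 10310 to 13920 in rostral pools and 11840 to 16710 in caudal pools. Pmch, Fezf1 and Fezf2 were each well above background on all 4 rostral arrays and on 1 caudal array. They thus entered the test only through the rostral pools, and the filter favoured a difference in this direction. Nkx2-1, well above background on all 8 arrays and a homeobox gene of the hypothalamus, averaged -1.54 ± 0.14 in rostral and -3.85 ± 0.10 in caudal pools (SD, n = 4 each), both below the reference. Of 10 GABAergic markers, Dlx1 and Dlx2 were higher and Tal2 lower in rostral pools, and the summed intensity was 154500 to 251800 in rostral and 110800 to 169600 in caudal pools. Dlx1 was well above background on all 4 rostral arrays and on 0 caudal arrays and likewise entered only through the rostral pools, while Dlx2 and Tal2 were well above it on all 8. The summed intensity of floor plate and progenitor markers was 80360 to 98840 in rostral pools, below the 102600 to 113600 of caudal pools, with Vim and Msx1 lower in rostral pools among 13 tested. The dopaminergic list had sums of 1823000 to 2081000 in rostral and 1982000 to 2188000 in caudal pools, with 1 member higher and 4 lower in rostral pools. Of 6 tested endothelial, 6 pericyte and mesenchyme and 6 erythroid markers none was called between the parts by limma, and Kdr and Pdgfrb were the 2 with an unadjusted p below 0.05. Of 6 glutamatergic and red nucleus markers 1 was higher and 2 were lower in rostral pools, and 1 of 7 motor and oculomotor and 1 of 7 microglia markers was higher.

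The pathway around the members was described with 3 lists, by counts and medians. For the counts of all 3 lists, the shares over all tested probes were 35% called higher and 32.7% lower in Gfp-positive cells. Between the parts, 1.83% of all tested probes were called higher and 1.53% lower in rostral pools. Of 13 tested binding partners and coreceptors, 7 were higher and 4 lower in Gfp-positive cells, with a median log2 ratio of 0.33, against 0.03 over all tested probes. Sdc2, a syndecan that carries heparan sulfate, averaged 1.503 (SE 0.07) and Ntn1, which encodes the guidance cue netrin-1, 1.43 (SE 0.06). Robo4, the endothelial receptor of the family, averaged -2.56 (SE 0.17) and Dag1, the gene of dystroglycan, -0.99 (SE 0.07), all with limma adjusted p of 2.16e-06 or less. The netrin receptor gene Dcc was at 0.77 (SE 0.15, limma adjusted p = 0.00125), and Nell2, the ligand of Robo3, at 0.33 (SE 0.15, limma adjusted p = 0.0758). Sdc4 was too dim to be tested.

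Between the parts, 1 of the 13 partners was higher and 2 were lower in rostral pools, with a median difference of 0.10, against -0.00045 over all tested probes. Flrt3, a membrane protein that acts with Robo1 in axons of the mouse thalamus, averaged 0.03 ± 0.10 in rostral and -0.69 ± 0.18 in caudal pools (SD, n = 4 each), a difference of 0.72 (limma adjusted p = 0.00587). Sdc1, another syndecan, averaged 0.23 ± 0.16 in rostral and 0.89 ± 0.10 in caudal pools (SD, n = 4 each), a difference of -0.66 (limma adjusted p = 0.0178). Cxcr4, a chemokine receptor, averaged -0.43 ± 1.14 in rostral and 1.91 ± 0.13 in caudal pools (SD, n = 4 each), a difference of -2.34 (limma adjusted p = 0.031). Dcc and Ntn1 differed by 0.10 and -0.37 and did not pass the test (limma adjusted p = 0.936 and 0.195).

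Of 23 genes for intracellular partners of Robo, 12 were higher and 6 lower in Gfp-positive cells (median 0.12). Srgap1, whose protein binds the tail of Robo, averaged 0.46 (SE 0.03). Evl, of the Ena/VASP family of actin regulators, averaged -0.76 (SE 0.02), Ctnnb1 -0.64 (SE 0.03) and Rhoa -0.76 (SE 0.05). Dock1, a Rac activator, averaged -3.76 (SE 0.12). Each of these genes, Srgap1 included, had a limma adjusted p of 6.02e-07 or less. Between the parts, Dock1 was higher in rostral pools by 1.08 (limma adjusted p = 0.0404) and the adaptor gene Nck2 lower by a log2 difference of -0.37 (limma adjusted p = 0.0386), and 21 of 23 did not pass. The median difference was -0.01.

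Of 14 tested genes for heparan sulfate synthesis and editing, 6 were higher and 7 lower in Gfp-positive cells (median -0.09). Ndst3, an N-deacetylase and N-sulfotransferase, averaged 1.70 (SE 0.09), and its relative Ndst4 -2.36 (SE 0.11). Glce, the epimerase of the chain, averaged 1.05 (SE 0.05) and Hs6st2, a 6-O-sulfotransferase, -1.31 (SE 0.08), each with a limma adjusted p of 4.49e-07 or less. Between the parts, Hs3st1, a 3-O-sulfotransferase, was higher in rostral pools, at 1.69 ± 0.25 in rostral and 0.30 ± 0.42 in caudal pools (SD, n = 4 each), a difference of 1.39 (limma adjusted p = 0.00948). Glce was lower in rostral pools by a log2 difference of -0.56 (limma adjusted p = 0.0184), as was Sulf2, an enzyme that removes 6-O-sulfates, by -0.44 (limma adjusted p = 0.033). The median difference was -0.02, and Hs6st3 was too dim to be tested.

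**Figure D5:**
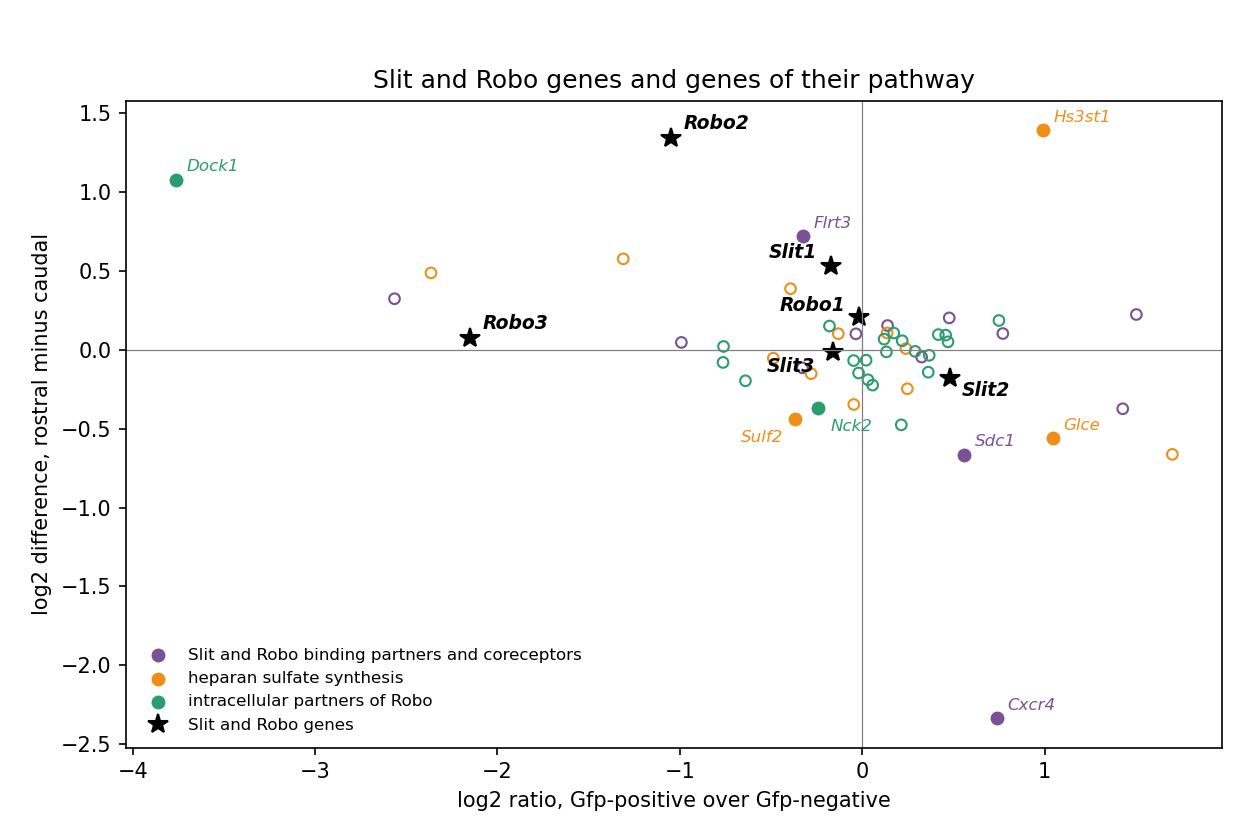
Log2 ratio of Gfp-positive over Gfp-negative cells (x axis) against the log2 difference of rostral minus caudal pools (y axis) for the 6 Slit and Robo genes (stars) and the tested genes of 3 pathway lists (circles, by list). Filled and named circles passed the adjusted threshold between the parts; Robo2, at -1.05 and 1.34, lies near Hs3st1 in height and on the other side of 0 in enrichment.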

How the data were processed

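Gene expression was measured on 8 Agilent 2-colour arrays, 4 with rostral and 4 with caudal pools, grouped by the labels. The deposited scanner files hold median pixel intensities of spot and local background, not normalized, which the authors extracted, per the file headers, with version 10.7.3.1 of Agilent Feature Extraction. The submitters' processing notes also name RMA, without a role. The deposited series-wide annotation gave gene symbols and descriptions, by which probes were assigned to genes together with RefSeq accessions. No value was taken from it, since the names of its 8 columns of values match no label, and those columns were not used.

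Analysis used R 4.3.3, limma 3.58.1 and data.table, version 1.17.8. Background was corrected with normexp (offset 50), arrays were normalized by loess with control and outlier spots at weight 0, and spots of a probe were averaged without outliers. Log2 ratios of green over red were fitted with lmFit and eBayes with an intensity trend over all tested probes. All p-values are 2-sided and adjusted by the Benjamini-Hochberg method over all of them. Channel levels were scaled between arrays by Aquantile. Intervals cover 95%, and precision is limited by how few arrays there are. The limma fit and the adjustment were tested on simulated log2 ratios, while the background correction, normalization, averaging and scaling were not.

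The brightest probe led its gene. The members and lists were chosen with earlier results of these data known. Of each list up to 4 genes with the smallest p in either comparison were named, besides Dcc, Nell2, Srgap1 and Fezf2, which were added after their values were seen. The alternatives were other background corrections, normalizations, filters, the slide row, the replicate number, the sample channel alone, and leaving out each pool. The mean over the probes of a gene, and the other scalings for each part against the reference, were added after the data were seen.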

Additional observations from a re-analysis of the deposited data

Results flagged for a closer look

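The 4 rostral and the 4 caudal pools differed in the Robo2 ratio to the Gfp-negative reference, by 1.34 on the log2 scale (SE 0.14, limma adjusted p = 0.00292), with all 4 rostral pools above all 4 caudal pools. No pool of any member stood apart from the other 3 of its part by Dixon's test at the 95% level.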

How the results depend on the processing

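The Robo2 difference between rostral and caudal pools stayed positive in 20 alternatives (1.11 to 1.58) and past the threshold in 18, the exceptions being the fits within each slide row. The count of members called between the parts was 2 among probes well above background on all arrays and with 1 probe a gene, 0 within either slide row, and 1 to 2 without 1 pool. The Slit1 call between Gfp-positive and Gfp-negative cells turned to 0.15 with median centring, where the counts of probes called were 16424 higher and 9598 lower (63.1% higher), against 13257 and 12398 (51.7% higher) with loess. In that comparison 3 to 5 members were called. Slit2, Robo2 and Robo3 were called in all 17 alternatives, each by its lead probe or a mean that includes it. By themselves, the further Robo3 probe (-0.13, limma adjusted p = 0.103) and Robo2 probe A_52_P597791 (-0.17, limma adjusted p = 0.0978) were not called. Robo2 probe A_55_P2083929 was called in the main fit (-0.61, limma adjusted p = 0.0101). Robo1 in the same comparison had values from -0.068 to 0.0093 without 1 pool. Probe A_52_P597791 of Robo2 turned to 0.068 with median centring. Rostral minus caudal, Slit3 turned to 0.027 with the scanner's processed signals, 0.010 with median centring, 0.16 within the second slide row and 0.076 in the sample channel alone, and ran from -0.13 to 0.16 without 1 pool. Robo3 turned to -0.031 within the second row and to -0.035 as the mean over its probes, and ran from -0.10 to 0.21 without 1 pool. None of these Slit3 and Robo3 values passed the test in any setting, and the causes were not tested. With the replicate number as a block, 1 member was called between the parts (Robo2, limma adjusted p = 0.0219) and 605 probes in all, against 1236. Same-numbered pools correlated at -0.022 to 0.035, and 1 of 8 pools matched its own number best. The labels state no pairing, and these correlations cannot show whether same-numbered pools shared embryos. The block changed no call of a member, but both further Robo2 probes lost theirs (adjusted p = 0.0644 and 0.125). Dim probes (Slit3, Robo3) limit what the arrays can show, and the very bright Robo1 probe was not checked for saturation.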
